A study of Mus musculus with 12 samples.

Results

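The genes that carry the rod light signal from the photopigment to phosphodiesterase, and those that switch it off, were examined in polyribosome-bound RNA of rods and in total retinal RNA. They were 9 of the 56748 genes in the table, chosen by name: the transducin subunits *Gnat1*, *Gnb1* and *Gngt1*, the shutoff complex *Rgs9*, *Rgs9bp* and *Gnb5*, the kinase *Grk1*, rod arrestin *Sag*, and *Rcvrn*. All 9 were found and all 9 passed the filter on low values. The study had 4 groups of 3 libraries each. Control mice (Pkm2_Rodhet, titled wt) carried RiboTag, 1 floxed and 1 intact *Pkm2* allele (Pkm2 fl/+) and the rod Cre i75-Rod-Cre. Rod knockout mice (Pkm2_Rodko, written Pkm2Rodko here) carried RiboTag, 2 floxed alleles (Pkm2 fl/fl) and the same Cre. Control mice thus shared the Cre and the tagged ribosomes, and had lost at most 1 *Pkm2* allele in rods. In RiboTag mice, Cre switches on an epitope-tagged ribosomal protein, so the bead-bound RNA (titled bead, tissue Rod PR, called rods here) comes from ribosomes of Cre-expressing cells, and the RNA before the purification (titled input) is that of all retinal cells. The cycloheximide-perfused, flash-frozen tissue came from mice that the deposited description gives as 2 weeks old and the methods as 2 months old.

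In a rod, light-activated pigment makes transducin exchange GDP for GTP, and its alpha subunit then activates the phosphodiesterase that lowers cGMP and closes the cation channels. The response ends when the pigment is phosphorylated and capped by arrestin, and when the alpha subunit hydrolyses its GTP, which the RGS9 complex speeds up. The rate of that shutoff sets how fast a rod recovers from a flash, and mouse cones use the same kinase and the same RGS9 complex.

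Each library held 13458890 to 22790074 reads. *Pkm*, the targeted gene, fell from 52564.6 ± 1766 (SD, n = 3) to 22849.7 ± 795 in rods and from 32323.7 ± 1664 to 20529.5 ± 552 in retina on the deposited scale, which counts all its transcripts together. The libraries labelled rods held 15 rod marker genes, none of them among the 9, at a sum of 63674 to 66729 CPM (reads relative to the library total), against 24421 to 28012 in retina. Marker sums of Müller glia were 432 to 672 CPM in rods and 5139 to 6478 in retina, and those of amacrine cells 102 to 191 and 1357 to 1583. Cone marker sums were 552 to 637 in rods and 1168 to 1284 in retina, and those of bipolar cells 558 to 671 and 1536 to 2038. Gene by gene the 2 lists differed, on the scale across fractions explained below. In control mice 14 of 15 bipolar markers were lower in rods than in retina, with a median log2 difference of -3.10 and a highest value of 0.89. For the cone markers 9 of 10 were lower, with a median of -0.70 and a highest value of 0.64. Of the markers listed for 10 retinal cell types, none was without reads in control rods and 1 endothelial marker was in Pkm2Rodko rods, so the rod libraries held RNA of the marker genes of other cells.

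Promoters were available for 6 of the 9 genes (*Sag*, *Gnb1*, *Gngt1*, *Grk1*, *Gnb5* and *Rgs9*). The window of 300 bases ran from 250 before to 50 after the gene start in the RefSeq table of build GRCm38.p6. They were searched on both strands for TAATCC (reverse GGATTA), the core recognised by the photoreceptor factor CRX, and for TGCTGA (reverse TCAGCA), a half-site of the rod factor NRL. The CRX core was in 3 of the 6 windows (*Sag*, *Gngt1* and *Gnb5*) and in 7.06% of all 32851 promoters. The NRL half-site was in 3 (*Sag*, *Grk1* and *Rgs9*) and in 19.5% of all. The 2 motifs did not overlap, and a match describes letters only. The windows of *Sag*, *Gngt1*, *Gnb5* and *Rgs9* are shown because they hold a match and stand for arrestin, transducin and the RGS9 complex, with capitals marking the 2 motifs. They lie on chromosome 1 from 87803430 to 87803729 (*Sag*, plus strand), chromosome 6 from 3993758 to 3994057 (*Gngt1*, plus strand), chromosome 9 from 75306038 to 75306337 (*Gnb5*, plus strand) and chromosome 11 from 109298132 to 109298431 (*Rgs9*, minus strand).
Sag: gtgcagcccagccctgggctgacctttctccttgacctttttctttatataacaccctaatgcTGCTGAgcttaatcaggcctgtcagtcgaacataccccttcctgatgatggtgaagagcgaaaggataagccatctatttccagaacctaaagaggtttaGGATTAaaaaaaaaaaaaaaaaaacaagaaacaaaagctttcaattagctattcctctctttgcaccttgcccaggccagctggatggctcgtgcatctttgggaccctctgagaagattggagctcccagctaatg
Gngt1: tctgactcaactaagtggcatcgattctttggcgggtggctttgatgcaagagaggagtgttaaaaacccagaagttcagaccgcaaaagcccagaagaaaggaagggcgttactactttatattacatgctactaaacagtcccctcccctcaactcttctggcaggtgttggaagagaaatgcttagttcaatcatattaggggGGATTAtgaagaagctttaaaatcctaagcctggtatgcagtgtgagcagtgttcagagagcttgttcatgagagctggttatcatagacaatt
Gnb5: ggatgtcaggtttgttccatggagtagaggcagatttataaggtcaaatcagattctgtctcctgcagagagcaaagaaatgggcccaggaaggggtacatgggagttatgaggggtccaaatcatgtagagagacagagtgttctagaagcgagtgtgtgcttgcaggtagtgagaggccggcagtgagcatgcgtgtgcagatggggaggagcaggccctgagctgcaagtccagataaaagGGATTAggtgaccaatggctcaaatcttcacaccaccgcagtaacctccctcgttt
Rgs9: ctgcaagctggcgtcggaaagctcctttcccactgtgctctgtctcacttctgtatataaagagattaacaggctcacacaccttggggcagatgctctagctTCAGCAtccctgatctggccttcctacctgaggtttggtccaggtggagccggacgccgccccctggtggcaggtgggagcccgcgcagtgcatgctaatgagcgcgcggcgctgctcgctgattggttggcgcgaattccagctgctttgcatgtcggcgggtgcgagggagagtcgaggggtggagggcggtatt

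In the *Sag* window the CRX core began 87 bases and the NRL half-site 187 bases before the start. The CRX core began 44 bases before the start of *Gngt1* and 6 bases before that of *Gnb5*. The NRL half-site began 147 bases before the start of *Rgs9*.

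All 9 genes were among the abundant transcripts of both fractions. Together they took 6.21% ± 0.196 (SD, n = 3) of all reads in control rods and 6.29% ± 0.314 in Pkm2Rodko rods. In retina they took 2.49% ± 0.0961 in control and 2.62% ± 0.128 in Pkm2Rodko mice. The genotypes overlapped in each fraction and the fractions did not. Values below are normalised reads, the reads of a gene divided by a factor (TMM, trimmed mean of M-values) that puts all 12 libraries on one scale, and are given for libraries 1, 2 and 3 of each group.

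*Gnat1*, the alpha subunit that activates the phosphodiesterase, had 550178, 506708 and 563234 normalised reads in control rods and 600073, 537515 and 527164 in Pkm2Rodko rods. Its retina libraries held 124566, 132076 and 122243 in control and 145364, 126315 and 124258 in Pkm2Rodko mice. Every rod library was far above every retina library, and the genotypes overlapped in both fractions. *Gnb1*, the beta subunit that docks the alpha subunit at the membrane, had 323592, 311765 and 306232 in control rods and 339891, 324974 and 308746 in Pkm2Rodko rods. Retina libraries held 86429, 90081 and 78589 in control and 96764, 84766 and 86482 in Pkm2Rodko mice. It showed the same split between fractions and the same overlap between genotypes. *Gngt1*, the farnesylated gamma subunit of rods, had 35581, 37455 and 41038 in control rods and 48020, 40344 and 34641 in Pkm2Rodko rods. The retina values were 12716, 11272 and 10547 in control and 11932, 9006 and 10168 in Pkm2Rodko mice. Pkm2Rodko rods held both the highest and the lowest *Gngt1* value of the 6 rod libraries, and the coefficient of variation there was 15.8% on the deposited scale against 6.73% in control rods.

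*Rgs9*, which speeds GTP hydrolysis on the alpha subunit, had 20558, 19537 and 18936 normalised reads in control rods and 18432, 20658 and 24575 in Pkm2Rodko rods. In retina it had 7072, 9808 and 7648 in control and 8845, 8708 and 9796 in Pkm2Rodko mice. Library 3 of the Pkm2Rodko rods and library 2 of the control retina stood above the others of their groups, and the genotypes overlapped. *Rgs9bp*, the membrane anchor that holds RGS9 on the discs, had 36775, 39717 and 37801 in control rods and 38823, 41527 and 43846 in Pkm2Rodko rods. The retina values were 20313, 28136 and 21872 in control and 26208, 24004 and 25403 in Pkm2Rodko mice. The gap between fractions was the smallest of the 9, with 36775 in the lowest rod library and 28136 in the highest retina library. *Gnb5*, the beta-type subunit without which RGS9 is unstable, had 27924, 28298 and 29064 in control rods and 28106, 28875 and 30540 in Pkm2Rodko rods. In retina it had 9313, 10943 and 9239 in control and 9889, 9804 and 10710 in Pkm2Rodko mice. It was the least variable of the 9 in control rods, with a coefficient of variation of 1.51%.

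*Grk1*, the kinase that phosphorylates the active pigment, had 75195, 67456 and 75583 normalised reads in control rods and 75268, 76269 and 89677 in Pkm2Rodko rods. In retina it had 29995, 34538 and 29944 in control and 34674, 33112 and 36998 in Pkm2Rodko mice. One Pkm2Rodko rod library, number 3, stood above the rest. *Sag*, the arrestin that caps phosphorylated pigment, had 265770, 206067 and 267020 in control rods and 257552, 230987 and 240458 in Pkm2Rodko rods. Retina libraries held 62490, 57845 and 59363 in control and 65153, 54654 and 61659 in Pkm2Rodko mice. Library 2 of the control rods was the lowest of the 6 rod libraries. *Rcvrn*, the calcium sensor that restrains the kinase in darkness, had 58824, 52093 and 61442 in control rods and 64111, 59334 and 49665 in Pkm2Rodko rods. In retina it had 14940, 14972 and 14146 in control and 16521, 15103 and 14449 in Pkm2Rodko mice, with the genotypes overlapping in both fractions.

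**Figure D1:**
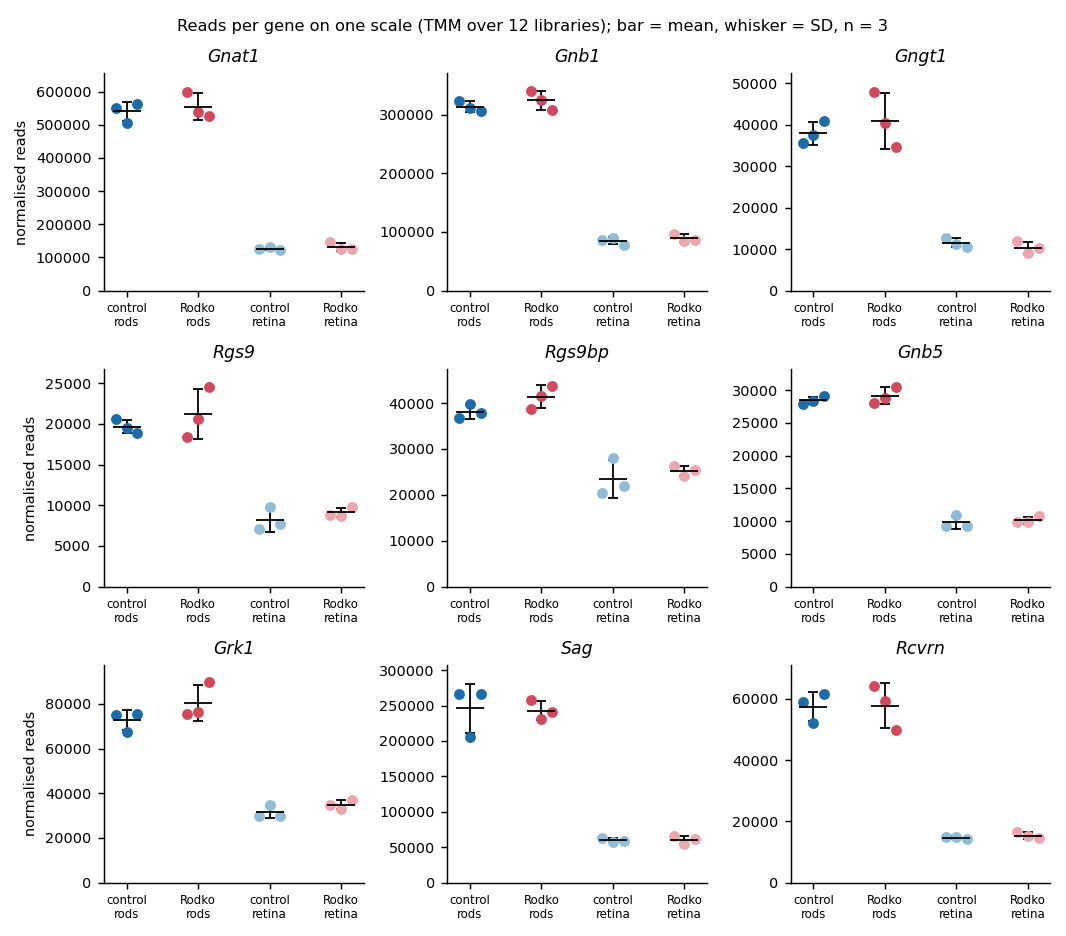
Normalised reads (linear axis from 0) of the 9 genes in the 12 libraries. Points are libraries 1 to 3 of each group, bars the mean and whiskers the SD (n = 3). The rod libraries lie above the retina libraries in every panel, with the narrowest gap in Rgs9bp (36775 against 28136), and the genotypes overlap.

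Per kilobase of the principal transcript the order of levels in control rods was *Gnat1*, *Sag*, *Gnb1*, *Rcvrn*, *Gngt1*, *Gnb5*, *Grk1*, *Rgs9* and *Rgs9bp*. *Gnat1* stood at 231976 ± 12713 normalised reads per kilobase (SD, n = 3), *Sag* at 143272 ± 20265 and *Gnb1* at 99861 ± 2821. *Gnat1* thus had 1.62 times the level of *Sag*, and transducin's beta and alpha subunits were both far above its gamma subunit *Gngt1* at 32143 ± 2344. At the lower end were *Grk1* (9789 ± 617), *Rgs9* (8507 ± 354) and *Rgs9bp* (5781 ± 227). No neighbours in this order overlapped in control rods. *Grk1* and *Rgs9* overlapped in Pkm2Rodko rods, *Grk1*, *Rgs9bp* and *Rgs9* in turn in control retina, and *Rgs9* and *Rgs9bp* in Pkm2Rodko retina. The order depends on the length used. Over all annotated exons in place of the principal transcript (8904 against 1719 bases for *Sag*), the levels per kilobase in control rods were 27660 for *Sag*, below *Gnb1* (73539) and *Rcvrn* (55243). *Gngt1* was at 10818, and *Rgs9* at 3079 was below *Rgs9bp* (5781).

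The first comparison asked whether loss of *Pkm2* in rods changed these transcripts on rod ribosomes. None of the 9 passed the test, and 4 of 20658 genes did (0.0194%) in limma with Benjamini-Hochberg adjustment over all genes. None had an unadjusted p under 0.05 (background 4.77%) or groups that did not overlap (background 9.89%). Log2 differences of Pkm2Rodko minus control, from the deposited values within rods, ran from -0.0022 for *Sag* to 0.15 for *Grk1*. Their median was 0.056, against 0.0060 over all genes. For the transducin subunits the values were 0.047 for *Gnat1* (95% interval -0.22 to 0.32), 0.056 for *Gnb1* (-0.18 to 0.29) and 0.11 for *Gngt1* (-0.14 to 0.35). For the RGS9 complex they were 0.11 for *Rgs9* (-0.12 to 0.34), 0.13 for *Rgs9bp* (-0.063 to 0.32) and 0.045 for *Gnb5* (-0.13 to 0.22). *Grk1* had an interval of -0.070 to 0.37, *Sag* of -0.27 to 0.27, and *Rcvrn*, at 0.010, of -0.22 to 0.24. Adjusted p-values from limma were 0.93 to 0.998. With 3 libraries a group the intervals reach from -0.27 to 0.37, and differences of that size could not be resolved. In rods the summed Müller markers were 532 to 672 CPM in control and 432 to 516 in Pkm2Rodko libraries. The amacrine markers stood at 122 to 191 and 102 to 116, and the endothelial markers at 21.0 to 30.1 and 14.5 to 19.2. The sums of rod, cone, bipolar, horizontal, ganglion, pigment epithelium and microglia markers overlapped between genotypes. Gene by gene, 13 of 15 bipolar markers were below 0 in rods (median log2 difference -0.42), and 11 of 12 ganglion markers (median -0.35). Of the bipolar markers 7 had an unadjusted limma p under 0.05 (background 4.77%) and 7 had groups that did not overlap (background 9.89%). For the ganglion markers these numbers were 2 and 1. None of either list passed after adjustment. The part of the Müller, amacrine, endothelial, bipolar and ganglion differences in the values above was not tested.

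In total retina, where fewer rods and less RNA per rod cannot be told apart, the genotype comparison gave the same count. None of the 9 passed, and 1 of 25590 genes did (0.00391%). None had an unadjusted p under 0.05 (background 4.18%) and none had groups that did not overlap (background 9.29%). Log2 differences ran from -0.14 for *Gngt1* (95% interval -0.36 to 0.079) to 0.19 for *Rgs9* (-0.052 to 0.42), with a median of 0.079 against -0.0045 over all genes. *Grk1* was at 0.17 (-0.023 to 0.36), *Rgs9bp* at 0.13 (-0.10 to 0.37), *Gnb1* at 0.088 (-0.12 to 0.29) and *Gnat1* at 0.077 (-0.14 to 0.29). *Rcvrn* was at 0.079 (-0.081 to 0.24), *Gnb5* at 0.064 (-0.12 to 0.25) and *Sag* at 0.027 (-0.17 to 0.22). *Rgs9* and *Rgs9bp* were lowest in library 1 and highest in library 2 of the control retina, a 1.40-fold range for each.

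**Figure D2:**
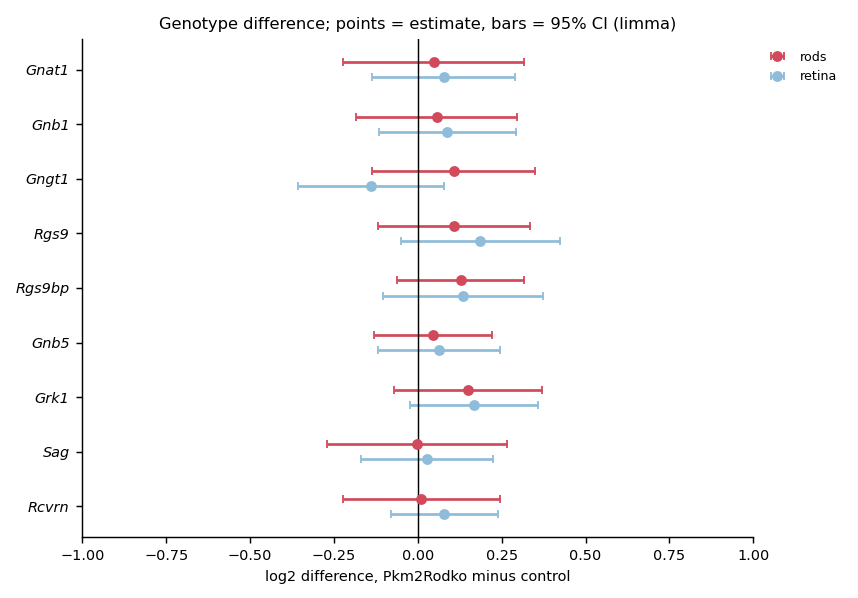
Log2 difference of Pkm2Rodko minus control for each gene in rods and in retina, with 95% intervals from limma (3 libraries against 3). Every interval includes 0, and the estimates lie between -0.14 and 0.19.

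The difference between the 2 genotype effects was tested as an interaction. No gene of 25584 passed (0%) in limma, 1128 had an unadjusted p under 0.05 (4.41%), and DESeq2 called 1. *Pkm*, the targeted gene, stood at -0.54 (standard error 0.10, limma adjusted p = 0.978) and did not pass either. A missing call here therefore does not show equal effects in the 2 fractions. None of the 9 had an unadjusted p under 0.05. The value farthest from 0 was that of *Gngt1*, 0.25 higher in rods than in retina (95% interval -0.11 to 0.62, limma adjusted p = 0.978). The other 8 lay between -0.070 (*Rgs9*) and 0.00070 (*Rgs9bp*).

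The comparison of fractions asked how far these transcripts were concentrated on rod ribosomes relative to the whole retina. In control mice all 9 passed the limma test as higher in rods, against 23.5% of 25584 genes, and in all 9 the rod and retina libraries did not overlap (background, higher: 25.2%). The log2 differences had a median of 1.73, against -0.37 over all genes. That background depends on the filter. Over genes with 10 or more reads in every library the median was 0.24, with 5912 genes called higher and 3614 lower. *Gnat1* was 2.10 higher in rods (95% interval 1.86 to 2.33, limma adjusted p = 4.22e-10), which is 4.27-fold. *Sag* was 2.03 higher (1.79 to 2.27), *Rcvrn* 1.96 (1.76 to 2.17), *Gnb1* 1.89 (1.67 to 2.10) and *Gngt1* 1.73 (1.47 to 1.99). The shutoff complex and the kinase were higher by less: *Gnb5* by 1.54 (1.37 to 1.70), *Rgs9* by 1.28 (1.03 to 1.53) and *Grk1* by 1.21 (1.01 to 1.41). *Rgs9bp* was 0.71 higher (0.49 to 0.94, limma adjusted p = 2.34e-05), which is 1.64-fold. These folds hold for the TMM scale.

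The call for *Rgs9bp* depended on the scaling. Divided by total reads, its log2 difference was 0.16 (limma adjusted p = 0.168) and with the deposited values as they are 0.12 (adjusted p = 0.345), so that 8 of the 9 passed. The other 8 kept their calls at lower values: divided by total reads *Gnat1* was 1.54 higher in rods and *Grk1* 0.66, and the median of the 9 was 1.17, or 1.13 with the deposited values. Those scalings put the median of all genes at -0.76 and -0.80. They called 2184 genes higher and 12706 lower (total reads) or 1942 and 13144 (deposited values), against 6001 and 9083 (35.5%) with TMM.

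In Pkm2Rodko mice all 9 again passed as higher in rods (background 23.9%) without overlap (background, higher: 26.3%). These libraries are other ones than those of the control mice, but the scaling and the estimate of the spread were shared with them. *Gnat1* was 2.07 higher, *Sag* 2.01, *Gngt1* 1.98, *Rcvrn* 1.90 and *Gnb1* 1.86. *Gnb5* was 1.53 higher, *Rgs9* 1.21, *Grk1* 1.20 and *Rgs9bp* 0.72. The median of all genes was -0.32, or 0.26 over genes with 10 or more reads in every library. The same 4 genes, *Gnb5*, *Rgs9*, *Grk1* and *Rgs9bp*, were the lowest of the 9 in both genotypes. For *Rgs9bp* the difference was 0.13 when divided by total reads (limma adjusted p = 0.274) and 0.11 with the deposited values (adjusted p = 0.380).

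**Figure D3:**
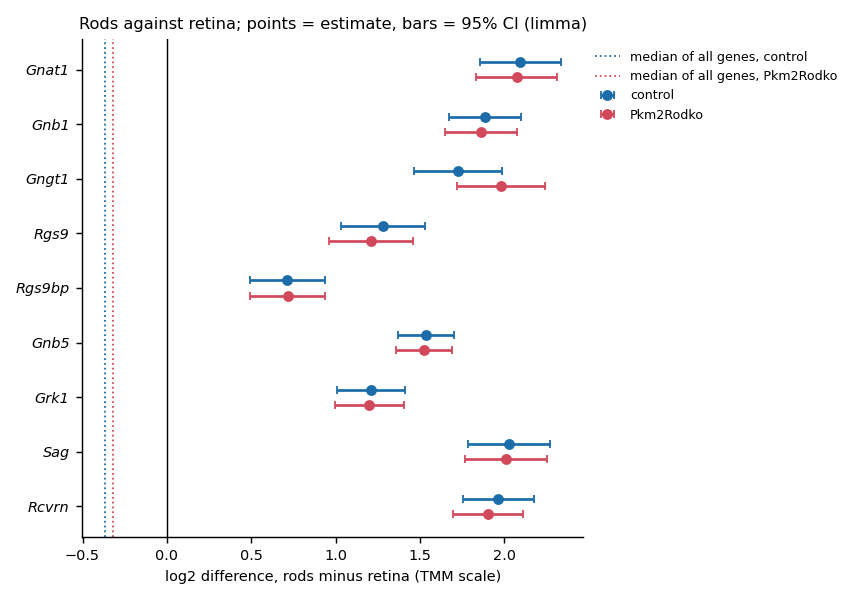
Log2 difference of rods minus retina on the TMM scale in control and Pkm2Rodko mice, with 95% intervals from limma (3 libraries against 3). The spread was estimated over all 12 libraries. Dotted lines mark the median of all genes (-0.37 and -0.32). All 9 genes lie to the right of 0, from 0.71 for Rgs9bp to 2.10 for Gnat1 in control mice.

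Ratios between the genes within a library do not depend on the scaling, and 13 such ratios were compared between the 6 rod and the 6 retina libraries of both genotypes. For each 100 reads of *Gnat1* there were 6.47 to 8.32 reads of *Rgs9bp* in rods and 16.3 to 21.3 in retina, a log2 difference of -1.37. The exact permutation p was 0.00216 (two-sided, 0.00313 after Benjamini-Hochberg adjustment over the 13). The 6 rod libraries were all below the 6 retina libraries. The same p-values held for *Grk1* (12.5 to 17.0 against 23.9 to 29.8 reads, log2 -0.88), *Rgs9* (3.07 to 4.66 against 5.68 to 7.88, -0.84) and *Gnb5* (4.68 to 5.79 against 6.80 to 8.62, -0.55). They also held for *Gnb1* (54.4 to 61.5 against 64.3 to 69.6, -0.21) and *Rcvrn* (9.42 to 11.0 against 11.3 to 11.99, -0.15), whose ranges did not overlap either. The *Gngt1* ratio overlapped (6.47 to 8.002 against 7.13 to 10.2, -0.23) with an exact permutation p of 0.0195 (adjusted 0.0230). The *Sag* ratio overlapped too (40.7 to 48.3 against 43.3 to 50.2, -0.065) with an exact permutation p of 0.249. Taken over the 6 same-numbered pairs of rods and retina, the exact sign-flip p of the *Gngt1* ratio was 0.0938 (adjusted 0.102) and that of the *Sag* ratio 0.0313 (adjusted 0.0369), the smallest that 6 pairs can give. In that test *Sag* per *Gnat1* was lower in rods in 6 of 6 pairs and *Gngt1* per *Gnat1* in 5 of 6. The ratios of *Rgs9bp*, *Grk1*, *Rgs9*, *Gnb5*, *Gnb1* and *Rcvrn* to *Gnat1* were each lower in 6 of 6 pairs. Their exact sign-flip p was 0.0313 each (adjusted 0.0369). The permutation p-values above do not use the pairs. *Gnat1* had the largest difference between fractions of these genes in both genotypes, so ratios to it are lower in rods by the choice of reference. The ratios to *Gnat1* share it and the rest of the 13 follow from them, so the 13 are not independent.

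**Figure D4:**
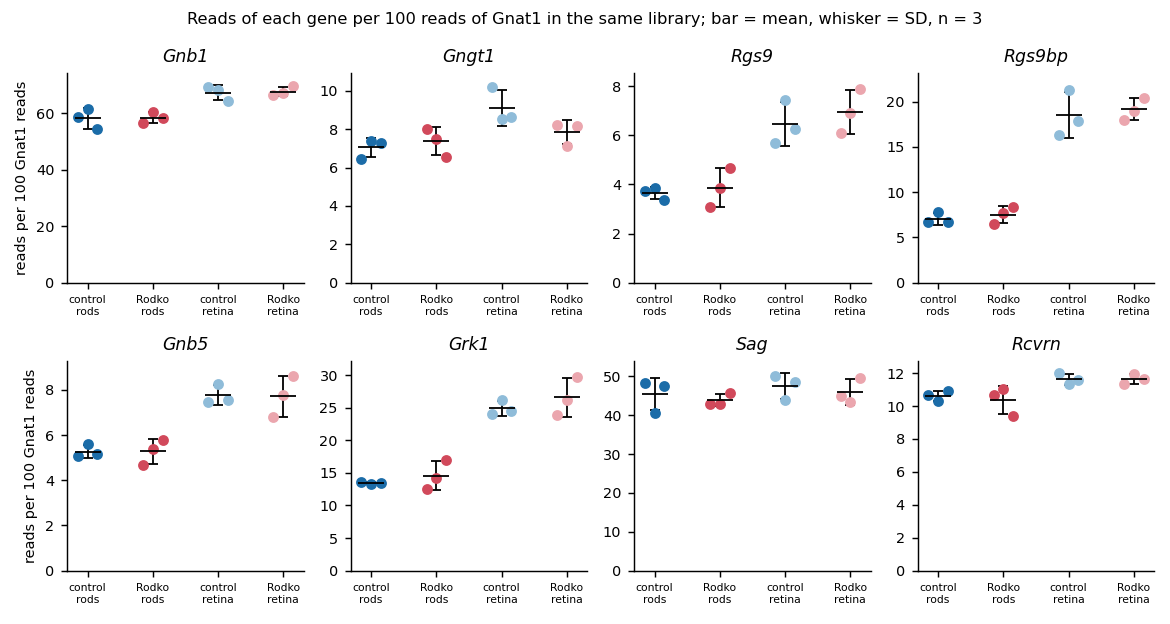
Reads of each gene per 100 reads of Gnat1 in the same library (linear axes from 0), a measure free of scaling. Points are libraries, bars the mean and whiskers the SD (n = 3). The ratio of Rgs9bp lies at 6.47 to 8.32 in rods and 16.3 to 21.3 in retina, while that of Sag overlaps.

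The reads of the 3 genes of the RGS9 complex were not in one proportion in the 2 fractions. The retina reads are of total RNA of all retinal cells and the rod reads of ribosome-bound RNA. These ratios are therefore not proportions within a complex of rods. For each 100 reads of *Rgs9* there were 178 to 211 of its anchor *Rgs9bp* in rods and 259 to 296 in retina (log2 -0.53, exact permutation p = 0.00216, adjusted 0.00313). For *Gnb5* the numbers were 124 to 153 in rods and 109 to 132 in retina (log2 0.29, exact permutation p = 0.00433, adjusted 0.00563), with overlapping ranges. The anchor per 100 reads of *Gnb5* stood at 130 to 144 in rods and 218 to 265 in retina (log2 -0.82, exact permutation p = 0.00216). The kinase per 100 reads of *Rcvrn*, its calcium-dependent inhibitor, stood at 117 to 181 in rods and 201 to 256 in retina (log2 -0.73, exact permutation p = 0.00216). In contrast, the ratio of the transducin gamma to the beta subunit was 11.0 to 14.1 per 100 in rods and 10.6 to 14.7 in retina (log2 -0.021, exact permutation p = 0.812). Between genotypes an exact permutation of 3 against 3 libraries cannot give a p under 0.1, so no ratio could pass. In retina *Gngt1* per 100 reads of *Gnat1* stood at 8.53 to 10.2 in control and 7.13 to 8.21 in Pkm2Rodko mice, and *Gngt1* per 100 reads of *Gnb1* at 12.5 to 14.7 and 10.6 to 12.3. In these ratios, which share *Gngt1*, the genotypes did not overlap and the exact permutation p was 0.1. All other genotype comparisons of the 13 ratios, in rods or in retina, had a larger exact permutation p. Over all genes in retina 9.29% had groups that did not overlap, so no change is read from these ratios.

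Libraries of a group differed in which of the 9 genes they held most of. Among the Pkm2Rodko rods, library 1 was the highest for *Gnat1*, *Gnb1*, *Gngt1*, *Sag* and *Rcvrn* and the lowest for *Rgs9*, *Rgs9bp*, *Gnb5* and *Grk1*, for which library 3 was the highest. The first 5 were also the genes with the larger differences between fractions. In control retina, library 2 was the highest for 7 of the 9, and in Pkm2Rodko retina library 1 was the highest for 6 and library 2 the lowest for 7 of the 9.

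Most relatives of the 9 genes in their protein families were depleted in rods. Of 29 such genes tested in control mice, *Hpcal1*, a calcium sensor related to *Rcvrn*, was higher in rods (log2 1.26) and 22 were lower, against 23.5% higher and 35.5% lower over all genes. Their median was -2.13, against -0.37 over all genes. *Rgs11*, an RGS protein of bipolar cells, fell by 3.63 and *Hpca*, the neuronal calcium sensor hippocalcin, fell by 3.52 on the log2 scale. *Grk4*, another G protein-coupled receptor kinase, stood at 0.17 and did not pass (limma adjusted p = 0.421). Dividing by total reads gave 1 higher and 25 lower. *Gnat1* stood at 376 times the level per kilobase of its cone relative *Gnat2* in control rods (357.6 to 410.2 over 3 libraries) and at 53.9 times in control retina (50.3 to 56.6). *Sag* stood at 178 times the level of cone arrestin *Arr3* in rods and 25.6 times in retina, and *Gngt1* at 106 and 19.0 times that of its cone relative *Gngt2*. *Grk1* stood at 44.4 times the level of the widely expressed *Grk2* in rods and at 11.3 times in retina. *Gnb1* stood at 42.3 times the level of the cone beta subunit *Gnb3* in rods (25.3 to 74.4) and at 11.2 times in retina (9.51 to 14.3), and *Rcvrn* at 27.98 and 17.2 times that of *Hpcal1*. Like the order of the 9 genes, these multiples depend on the transcript lengths used.

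**Figure D5:**
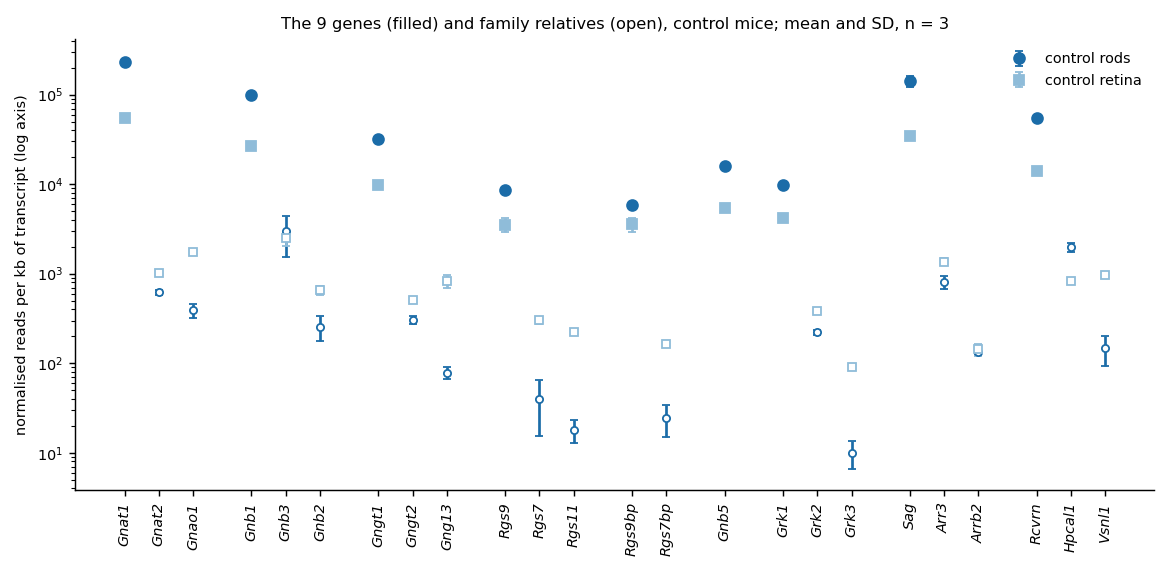
Normalised reads per kilobase of transcript (log axis) of the 9 genes (filled) and of family relatives (open) in control rods and control retina, mean and SD (n = 3). The 9 genes are higher in rods, whereas of 29 relatives tested 22 were lower there and Hpcal1 was higher (log2 1.26).

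The other genes of the cascade were placed by lists. All 15 other rod phototransduction genes were higher in rods in control mice (background 23.5%), with a median log2 difference of 1.78 and values from 1.17 for *Gucy2f*, a guanylate cyclase that makes cGMP, to 1.99 for *Pdc*, phosducin, which binds the transducin beta-gamma pair. *Pde6d*, a carrier of prenylated proteins, stood at 1.25 and *Guca1b*, a calcium sensor of the cyclase, at 1.95. In control mice *Rgs9bp* at 0.71 lay below all 15 and *Gnat1* at 2.10 above all 15. In Pkm2Rodko mice the 15 ran from 1.22 to 2.15, so that *Rgs9bp* at 0.72 was again below all, but *Gnat1* at 2.07 was not above all. Of 10 cone counterparts none was higher and 9 were lower (background, lower: 35.5%), with a median of -0.70. *Cngb3*, a cone channel subunit, fell by 1.08 and *Arr3* by 0.77 on the log2 scale, the cone opsin gene *Opn1mw* fell by 0.46, and *Gnb3* at 0.13 did not pass (limma adjusted p = 0.726). Of 15 genes for the folding, lipid attachment and membrane traffic of G proteins, 14 were higher and 1 lower (background 23.5% and 35.5%), with a median of 1.06. *Unc119*, a carrier of the acylated alpha subunit, was 1.81 higher and *Gpsm2*, a binder of inhibitory alpha subunits, 1.61. *Nmt2*, an N-myristoyltransferase, fell by 0.67. *Ric8a*, a chaperone of alpha subunits, was 0.42 higher with TMM but -0.13 when divided by total reads (limma adjusted p = 0.226), where 13 of the 15 were higher. The lists share genes. *Unc119* and *Pde6d* are both rod phototransduction genes and G protein partners. *Gnat2*, *Gnb3*, *Gngt2* and *Arr3* are both cone counterparts and family relatives. No gene of these 3 lists or of the family relatives passed the limma test between genotypes in rods (background 0.0194%) or in retina (0.00391%). The median genotype differences in rods were 0.039 for the rod list, 0.056 for the G protein partners, -0.11 for the cone counterparts and -0.30 for the relatives. Of 28 relatives tested in rods 23 were below 0, 6 had an unadjusted p under 0.05 (background 4.77%) and 6 had groups that did not overlap (background 9.89%). Pkm2Rodko rods had lower Müller, amacrine and endothelial marker sums and mostly lower bipolar and ganglion marker genes. The part of these differences in the values of the lists was not tested.

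The 5 genes outside the 9 whose profile over the 12 libraries was most like their mean profile, among 11128 genes with at least 100 normalised reads on average, were *Nxnl1*, *Lsm14a*, *Hnrnpm*, *Nim1k* and *Nr2e3*. Pearson's r was 0.999 for *Nxnl1*, a thioredoxin-like photoreceptor gene, and 0.998 for the other 4, of which *Nr2e3* encodes a rod transcription factor. The 12 points fall into the 2 fractions, so r mostly describes the gap between them.

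*Gnb5* shares exon bases with the antisense gene *Gm19531*, whose deposited level was 11.5 in control rods against 22191 for *Gnb5*, and whether counting used strand is not given in the sources used here. The pseudogenes of *Gnb1* had at most 34 reads in any library, or at most 0.0138% of the reads of *Gnb1*.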

How the data were processed

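Polyribosome-bound RNA of rods and total retinal RNA were sequenced from 3 libraries a group. The deposited table gives a signal for each gene and library, made by the authors by dividing reads by a size factor. Their processing notes name CASAVA 1.8.2, HISAT2, DESeq2, edgeR and GRCm39 without roles, and the counter, annotation and strand setting are not given in the sources used here. Whole reads were recovered for 99.994% of positive values (within a tolerance of 0.06), at 13458890 to 22790074 reads a library. The size factors were set within each fraction, so deposited values served for the genotype comparisons, and TMM-scaled reads for those between fractions and the interaction. The comparisons on TMM-scaled reads came from 1 fit of all 12 libraries, in which the 4 groups shared 1 estimate of the spread. limma (3.58.1, R 4.3.3) was run on log2(value + 1), with genes of a mean of at least 1 in either group, Benjamini-Hochberg adjustment over all genes and a threshold of 0.05. Fold changes are on that scale and understate changes of low genes. As alternatives, the recovered reads were tested in edgeR (4.0.16) and DESeq2 (1.42.0). Same-numbered rod and retina libraries deviated together (correlations 0.290 to 0.599 over 11264 genes), so the numbers pair the fractions. Nothing says that replicates were separate animals, so p-values measure the spread between these libraries, which may be technical. No 2 libraries of a group were alike within sampling noise. Lengths came from GENCODE transcripts on GRCm38. The 9 genes and all lists were chosen with earlier results of these data known. From each list of family relatives, cone counterparts, rod phototransduction genes and G protein partners, the 2 genes with the highest and the 2 with the lowest difference between control fractions were named, along with the relatives set beside a member. The script was tested on simulated data.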

Additional observations from a re-analysis of the deposited data

How the results depend on the processing

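For the 9 genes no call between genotypes or in the interaction appeared under any alternative run (scaling, filter, pseudocount, edgeR, DESeq2, 1 fit of all 12 libraries, replicate block, leaving out a library), and the calls between fractions held in all of them except for *Rgs9bp* when divided by total reads (0.16 and 0.13 in control and Pkm2Rodko mice) or with deposited values (0.12 and 0.11). The numbers of genes called between genotypes in rods (4) were 7 with DESeq2, 29 in 1 limma fit of all 12 libraries, 8 with the replicate block, and 2 to 6 when single libraries were left out. In retina (1) they were 0 with 10 or more reads in every library, 0 with the replicate block, and 0 to 4 when single libraries were left out. Requiring 10 reads in every library gave 9526 genes called between fractions in control mice (main 15084) and 9651 in Pkm2Rodko mice (main 15100), since fewer genes were tested, with 5912 higher and 3614 lower in control mice. In the interaction DESeq2 called 1 gene, limma 0 and edgeR 0. On the recovered reads edgeR called 4 genes in rods, 1 in retina, and 14043 and 14309 between fractions in control and Pkm2Rodko mice. The genotype numbers did not pair libraries (correlations of same-numbered libraries -0.306 to 0.057), and the block changed no call on the 9 genes, though it gave *Gngt1* an unadjusted p under 0.05 in the interaction (limma adjusted p = 0.766). Chosen after seeing the data, the replicate block on the ratios moved *Gngt1* per *Gnat1* (log2 -0.23, exact sign-flip p = 0.0938) and *Sag* per *Gnat1* (-0.065, exact sign-flip p = 0.0313) across the threshold.

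Values near 0 changed sign under other settings, with none of them called. In rods, *Sag* was 0.012 with TMM within the fraction and *Rcvrn* -0.023 with total reads. In the interaction *Rgs9bp* was -0.013 with RLE scaling, -0.034 with total reads, -0.0073 with deposited values, -0.0058 in edgeR and -0.00037 in DESeq2. Leaving out single libraries gave, in rods, *Gnat1* -0.0053 to 0.081, *Gngt1* -0.0080 to 0.22, *Rcvrn* -0.064 to 0.11, *Rgs9* -0.0048 to 0.21 and *Sag* -0.12 to 0.060, and in retina *Sag* -0.023 to 0.10. In the interaction it gave *Gnat1* -0.098 to 0.049, *Gnb1* -0.076 to 0.035, *Gnb5* -0.090 to 0.032, *Grk1* -0.082 to 0.036, *Rcvrn* -0.16 to 0.051, *Rgs9* -0.21 to 0.028, *Rgs9bp* -0.14 to 0.097 and *Sag* -0.13 to 0.041. The ratio of *Gngt1* to *Gnb1* ran from -0.068 to 0.026, and the other 12 ratios kept their sign and their side of the threshold. With 3 libraries a group, small differences between genotypes cannot be resolved.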
